A study of Blattella germanica with 16 samples.

Results

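The genes described here carry amino acid, urate and nitrogen metabolism in the fat body of the German cockroach Blattella germanica. They are the genes whose annotated product names an aminotransferase, uricase, xanthine dehydrogenase, an allantoin enzyme, glutamine synthetase, glutamate dehydrogenase, glutamate synthase, arginase, proline dehydrogenase, a cystathionine enzyme, adenosine deaminase, or an enzyme of pyrimidine breakdown or of 2 steps of purine synthesis. The search found 43 of the 28676 genes in the expression table. The rule reads product names and no expression values, though it was set with earlier results of these data known.

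RNA sequencing measured fat body of adult females that had received 2 injections of double-stranded RNA (dsRNA), which triggers RNA interference, at 2 µg each. The study compared 4 groups of 4 libraries: dsInR1, dsInR2 and dsInR3, each directed against 1 of 3 insulin receptors, and dsMock, a control dsRNA. All females were kept at 30 °C and 70% humidity, and had the same diet of dog food, the same number of injections and no stated mutation or transgene. Per the series design, injections began on the first day of ootheca transport and were repeated 7 days later, the ootheca was taken away on day 12, and tissue was taken on day 5 of the second reproductive cycle. Per the treatment protocol, injections fell 12 and 5 days ahead of extraction, and nothing in the labels decides between these timings. How many animals went into a library is not stated there either. P-values therefore speak only to the spread among these libraries, part of which may be technical.

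The insect fat body is a storage and metabolic organ that serves roles of liver and fat tissue in vertebrates. In cockroaches it also stores nitrogen as urate in specialised cells, and it houses an intracellular bacterium that recycles nitrogen into amino acids for its host. Urate forms from purines through xanthine dehydrogenase and is broken down through uricase, allantoin and allantoic acid. Aminotransferases move amino groups between amino acids and keto acids, and glutamine synthetase fixes free ammonia.

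Library totals were 16.54 to 21.6 M reads in dsInR1, 16.39 to 23.69 M in dsInR2, 15.45 to 20.99 M in dsInR3 and 15.35 to 21.19 M in dsMock. The annotation names 1 gene as an insulin receptor (InR, C0J52_14014) and does not say which of the 3 it is. Its level was 48.9 ± 2.62 CPM in dsInR1, 5.90 ± 1.86 CPM in dsInR2, 38.5 ± 6.41 CPM in dsInR3 and 52.8 ± 1.70 CPM in dsMock (SD, n = 4). CPM is the read count put on 1 library scale with TMM factors. Against dsMock, the log2 fold change of InR was -3.16 in dsInR2 (adjusted p = 3.24e-07, edgeR quasi-likelihood test). It was -0.11 in dsInR1 and -0.46 in dsInR3, and neither passed. With no other insulin receptor named, knockdown of the targets of dsInR1 and dsInR3 cannot be read from these counts. A single gene of unknown product, C0J52_15443, held 3.36 ± 3.84% of reads in dsInR2 and 55.1 ± 3.58% in dsMock (SD, n = 4). Its share was 58.2 ± 2.91% in dsInR1 and 50.1 ± 10.1% in dsInR3. Within dsInR3, library 3 held 35.1% and the others 53.8 to 56.9%. The dsInR2 libraries differed among themselves, from 2.27e-04% to 6.99%. Fat body markers, 4 genes, summed to 59138 to 105154 CPM in dsInR2 and 22892 to 37507 CPM in dsMock, with 2 genes higher and 1 lower by the test. Markers of gut and Malpighian tubule, 12 tested of 27, summed to 216.6 to 377.2 CPM in dsInR2 and 227.5 to 335.8 CPM in dsMock, with 4 higher, 3 lower and 8 of the 27 at 0 in every library. Hemocyte markers, 4 genes, summed to 141.5 to 394.7 CPM in dsInR2 and 196.2 to 230.2 CPM in dsMock, with none called. Nervous tissue markers, 15 tested of 24, summed to 144.1 to 270.6 CPM in dsInR2 and 107.6 to 156.4 CPM in dsMock, with 2 higher and none lower. Sums of muscle, ovary, and epidermis and trachea markers overlapped between dsInR2 and dsMock. Their part in the results was not tested. In these bulk samples, fewer cells of a type and less RNA per cell cannot be told apart.

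Of the 43 members, 35 had enough reads to be tested and 8 did not. In dsInR2 against dsMock, 15 of the 35 passed an adjusted p of 0.05, 6 higher and 9 lower (edgeR quasi-likelihood test, adjusted over 10536 genes). That is 42.9% of the tested members, beside a background of 32.3% of all tested genes called in that comparison, 17.6% higher and 14.7% lower. The median log2 fold change was -0.18 over the 35 members and 0.04 over all tested genes. In dsInR3 against dsMock no member passed, with a background of 0.304%. There, 6 of the 35 members had an unadjusted p under 0.05, a share near the 14.7% of all tested genes. In dsInR1 against dsMock no member passed either, with a background of 0%. There, 2 of the 35 had an unadjusted p under 0.05, beside 3.29% of all tested genes. The libraries of dsInR2 and dsMock did not overlap in 12 of 35 members, or 34.3%, beside 30.1% of all tested genes. The 3 comparisons share the dsMock libraries.

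Library 1 of dsMock lay at an end of the dsMock range in several members. It was the lowest of the 4 in CTH_0, CTH_3, AGXT and Gs2 and the highest in Uro, DPYD, AGXT2 and Abat. Some library is lowest or highest in every member, so these ranks alone do not set it apart. Only in CTH_0 was it flagged as far from the others, and narrowly. With dsMock library 1 and dsInR3 library 3 left out, 16 members were called in dsInR2 over dsMock, 4 higher and 12 lower. Of these, 12 were among the 15. That alternative was chosen after seeing the data. The share of all genes called in it is not reported here, so the 16 cannot be set against a background.

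**Figure D1:**
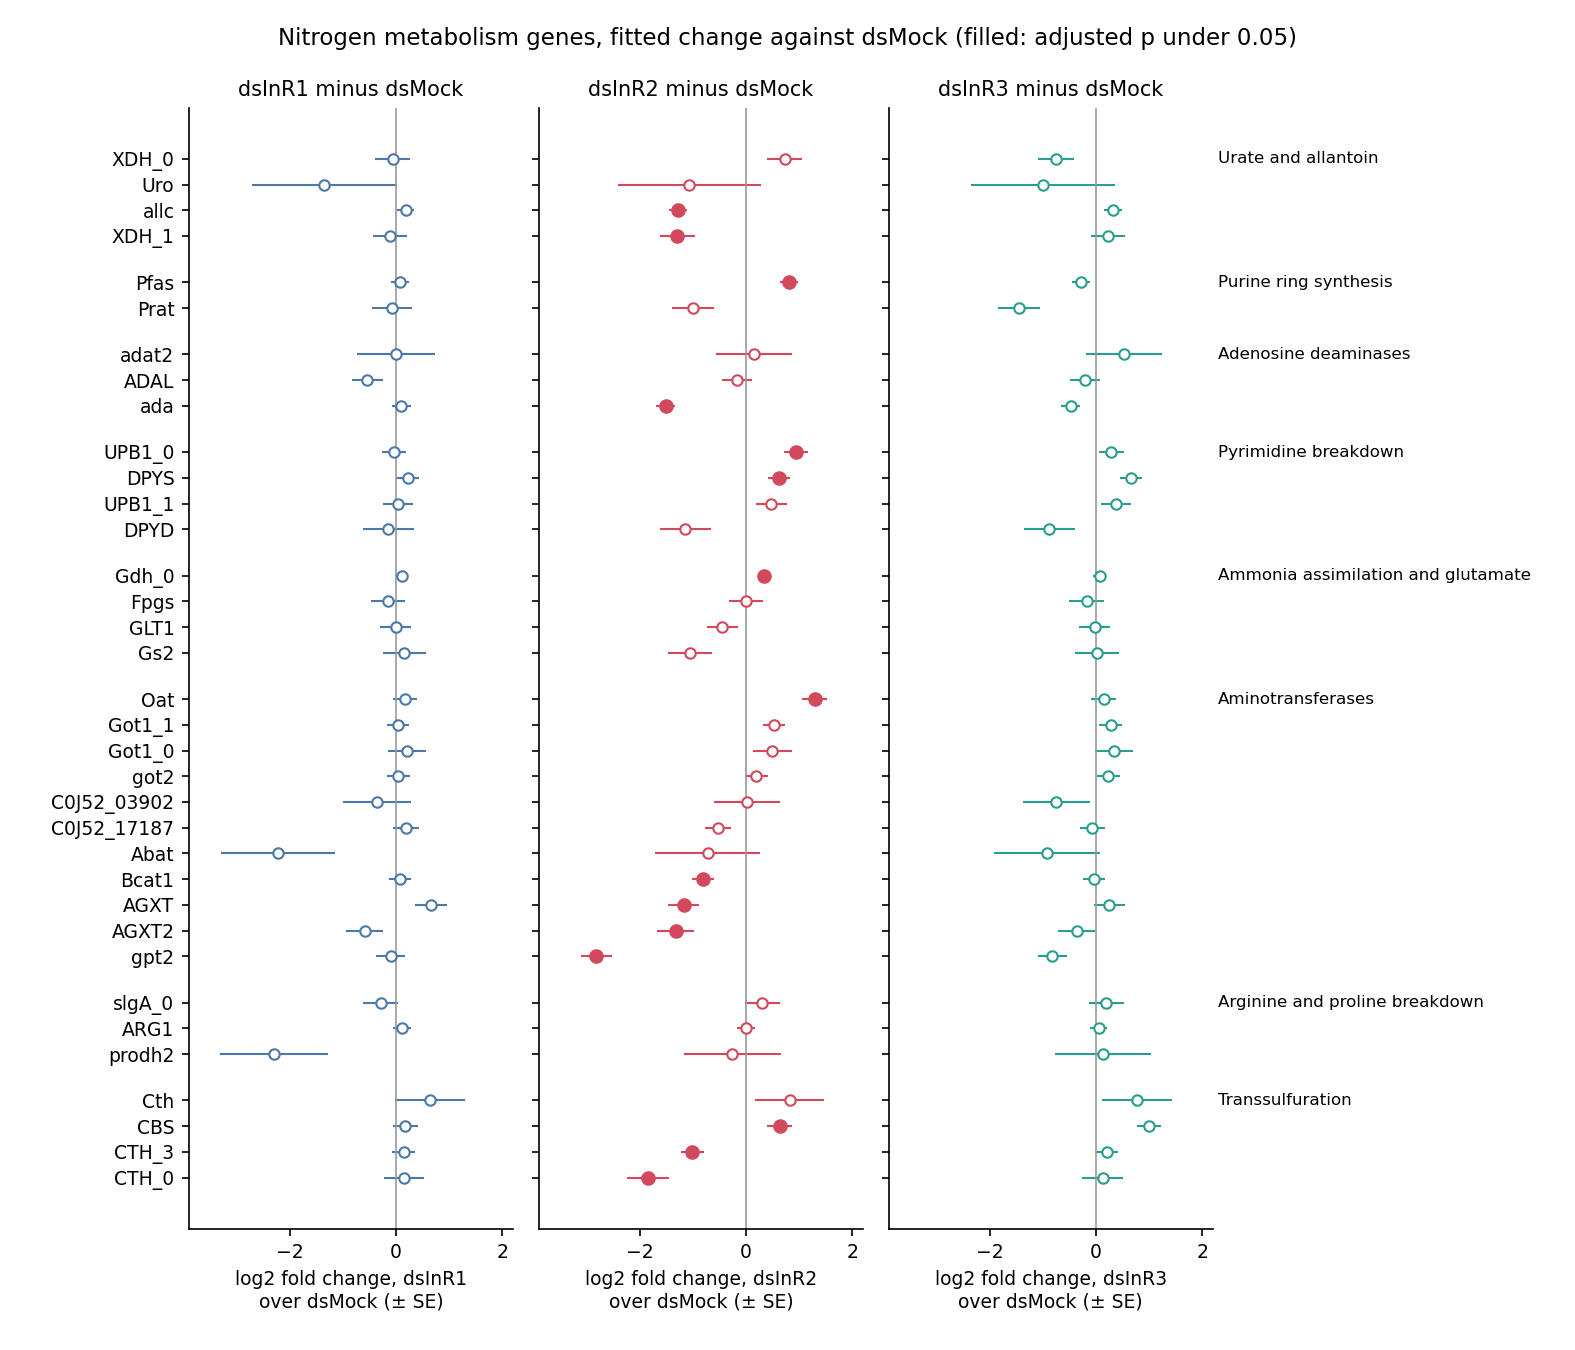
Fitted log2 fold change (x axis, ± SE) of the 35 tested members, by role (rows), for dsInR1, dsInR2 and dsInR3 each over dsMock; filled points passed an adjusted p of 0.05. Filled points appear in the dsInR2 panel, 15 in all, with gpt2 the lowest at -2.82 and Oat the highest at 1.29.

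In the urate route, allantoicase and the xanthine dehydrogenase gene XDH_1 fell in dsInR2, and uricase was below every dsMock library in 3 of 4 dsInR2 libraries without passing the test. Of the 4 genes of urate and allantoin, 2 fell, none rose and 2 did not pass.

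Allantoicase (allc, C0J52_25308, contig PYGN01001921.1, 114162 to 118138 in genome build Bger_1.1) splits allantoic acid into urea and ureidoglycolate. It had 53.3, 40.8, 45.1 and 31.7 CPM in dsInR2 libraries 1, 4, 7 and 8, against 97.6, 94.0, 120.3 and 101.97 CPM in dsMock libraries 1, 3, 4 and 5. Every dsInR2 library lay below every dsMock library. The log2 fold change was -1.28 (SE 0.17, adjusted p = 7.43e-05), or 2.42-fold lower. The dsInR1 libraries held 101.7 to 144.5 CPM and the dsInR3 libraries 113.8 to 158.3 CPM.

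XDH_1 (C0J52_21541, contig PYGN01002063.1, 157885 to 231460) and XDH_0 (C0J52_13926, contig PYGN01000222.1, 1438317 to 1511707) are both annotated as xanthine dehydrogenase, the enzyme that makes urate. XDH_1 had 6.60, 4.52, 6.63 and 3.71 CPM in the dsInR2 libraries, against 11.7, 17.2, 10.7 and 13.0 CPM in the dsMock libraries. No dsInR2 library reached the dsMock range, and XDH_1 fell, its log2 fold change being -1.29 (SE 0.33, adjusted p = 0.00671). XDH_0, the copy with more reads, had 260.5, 96.1, 165.4 and 280.9 CPM in the dsInR2 libraries, against 91.7, 140.1, 86.2 and 166.6 CPM in the dsMock libraries. The groups overlapped, and the log2 fold change of 0.73 (SE 0.33) did not pass (adjusted p = 0.108). XDH_0 passed without dsInR2 library 4, at 0.96 and an adjusted p of 0.0271. The labels do not say how reads that match similar copies were divided.

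Uricase (Uro, C0J52_05769, contig PYGN01000485.1, 185580 to 211462) oxidises urate on the way to allantoin. It had 2731, 2.28, 14.02 and 45.5 CPM in dsInR2 libraries 1, 4, 7 and 8, against 2905, 491, 857 and 1605 CPM in dsMock libraries 1, 3, 4 and 5. Libraries 4, 7 and 8 of dsInR2 lay below every library of the other groups, whose lowest value was 269 CPM in dsInR1 library 7, and dsInR2 library 1 lay near the top of the dsMock range. The log2 fold change in dsInR2 over dsMock was -1.07 (SE 1.35, 95% interval -3.95 to 1.81, adjusted p = 0.589). Without dsInR2 library 1 it was -6.15 (adjusted p = 7.62e-04), and limma-voom on all libraries gave -4.67 (adjusted p = 0.0388), so the call rests on 1 library and on the tool. Uricase also spread within dsInR1, at 307, 744, 978 and 269 CPM, and within dsInR3, at 1415, 565, 514 and 441 CPM.

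Of the 2 genes of purine ring synthesis in the search, 1 rose in dsInR2 and the other was lower in every dsInR2 library without passing. Pfas (C0J52_15951, contig PYGN01002080.1, 123292 to 156268), phosphoribosylformylglycinamidine synthase, had 298.9, 215.5, 306.7 and 322.8 CPM in the dsInR2 libraries, against 140.2, 178.6, 160.4 and 172.9 CPM in the dsMock libraries. Every dsInR2 library lay above every dsMock library, and the log2 fold change was 0.81 (SE 0.17, adjusted p = 0.00172). Prat (C0J52_16118, contig PYGN01001658.1, 43454 to 72814), the amidophosphoribosyltransferase that commits the route, had 26.6, 76.2, 69.2 and 45.3 CPM in the dsInR2 libraries. In the dsMock libraries it had 77.8, 160.1, 77.8 and 118.6 CPM. The groups did not overlap, although dsInR2 library 4 and the lowest dsMock libraries lay close. The fitted log2 difference of Prat was -0.999 (SE 0.39, adjusted p = 0.0609), which passed with DESeq2 (adjusted p = 0.0340) and without dsMock library 1 (adjusted p = 0.0485).

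**Figure D2:**
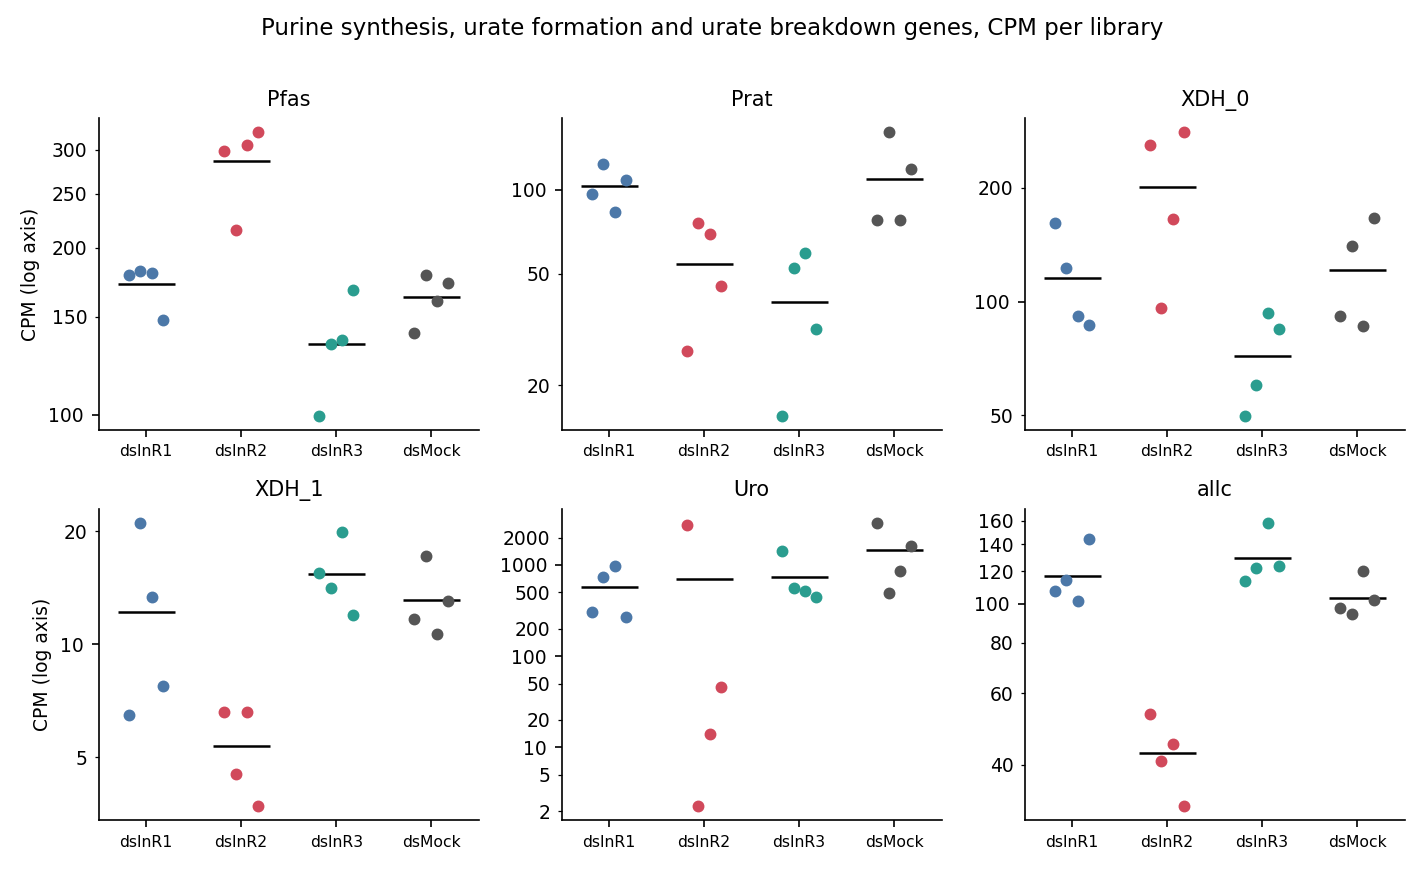
CPM per library (log y axis) of 2 purine synthesis genes, 2 xanthine dehydrogenase genes, uricase and allantoicase in dsInR1, dsInR2, dsInR3 and dsMock (x axis); points are libraries and bars are group means of 4. For Uro, 3 dsInR2 points lie between 2.28 and 45.5 CPM and the remaining point at 2731 CPM, while all 4 dsInR2 points of allc lie below those of the other groups.

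Adenosine deaminase (ada, C0J52_02900, contig PYGN01000022.1, 3224912 to 3237120) removes the amino group of adenosine and so feeds purine breakdown. It had 11.8, 10.4, 10.9 and 10.9 CPM in the dsInR2 libraries, against 36.96, 32.7, 23.6 and 32.5 CPM in the dsMock libraries. The dsInR2 libraries were close to each other and all lay below dsMock. Its log2 fold change was -1.51 (SE 0.18, adjusted p = 3.88e-05), or 2.85-fold lower. The other 2 members of this role did not pass: ADAL, an adenosine deaminase-like protein, had a log2 fold change of -0.18, and adat2, which edits tRNA and is no enzyme of nitrogen breakdown, had 0.15.

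Pyrimidine breakdown takes uracil and thymine through dihydropyrimidine dehydrogenase, dihydropyrimidinase and beta-ureidopropionase to ammonia and beta-alanine or its methyl form. In dsInR2, genes of the last 2 steps rose, whereas that of the first step was low in 3 of 4 libraries. Of the 4 genes, 2 rose, none fell and 2 did not pass. UPB1_0 (C0J52_07848, contig PYGN01000713.1, 434574 to 456056), the beta-ureidopropionase gene with the most reads of all members, had 8727, 4108, 7231 and 6406 CPM in the dsInR2 libraries, against 3183, 3078, 3503 and 4053 CPM in the dsMock libraries. All dsInR2 libraries were higher, dsInR2 library 4 by a small margin, and the log2 fold change was 0.94 (SE 0.23, adjusted p = 0.0058).

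UPB1_0 took 61.7 ± 5.63% of all reads of the 43 members in dsInR2 and 35.9 ± 2.68% in dsMock (SD, n = 4). The members together took 1.40 ± 0.33% of all reads in dsInR2 and 0.867 ± 0.088% in dsMock. With the reads of C0J52_15443 left out of the total, the order turned: the members took 1.45 ± 0.29% in dsInR2 and 1.93 ± 0.21% in dsMock. UPB1_1 (C0J52_02313), the second copy, ranged from 103.5 to 178.2 CPM in dsInR2 and from 78.04 to 122.9 CPM in dsMock, and did not pass (log2 fold change 0.48, adjusted p = 0.223).

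Dihydropyrimidinase (DPYS, C0J52_09166, contig PYGN01000140.1, 1893290 to 1952137) had 160.3, 103.7, 94.5 and 86.2 CPM in the dsInR2 libraries, against 65.1, 72.2, 75.2 and 76.5 CPM in the dsMock libraries. The groups did not overlap, and dsInR2 library 1 was the highest. Its log2 fold change was 0.62 (SE 0.21, adjusted p = 0.0347), and the call was lost in 7 of 17 alternatives, among them without dsInR2 library 1 and without any of the 4 dsMock libraries in turn. Dihydropyrimidine dehydrogenase (DPYD, C0J52_01148, contig PYGN01000142.1, 1224427 to 1253567) had 45.2, 41.9, 264.7 and 81.5 CPM in the dsInR2 libraries, against 386.4, 212.2, 183.7 and 172.7 CPM in the dsMock libraries. Only dsInR2 library 7 reached the dsMock range. DPYD did not pass, its log2 fold change being -1.14 (SE 0.49, adjusted p = 0.0857), and without that library it was -2.09 (adjusted p = 4.77e-04).

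Of the 4 tested genes of ammonia assimilation and glutamate, Gdh_0 rose in dsInR2 and the others did not pass. Glutamate dehydrogenase (Gdh_0, C0J52_06240, contig PYGN01000117.1, 460293 to 509560) links glutamate to free ammonia and 2-oxoglutarate. It had 35.6, 25.99, 27.4 and 29.8 CPM in the dsInR2 libraries, against 23.3, 23.1, 22.4 and 25.2 CPM in the dsMock libraries. The groups did not overlap, but the gap was narrow, and the log2 fold change was 0.34 (SE 0.12, adjusted p = 0.0365). The call was lost in 10 of 17 alternatives, including both other scalings in edgeR and the fits without dsInR2 libraries 1 or 8 or dsMock libraries 1, 3 or 4.

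Glutamine synthetase (Gs2, C0J52_09885, contig PYGN01000753.1, 705734 to 720994) joins ammonia to glutamate. It had 797, 308, 323 and 375 CPM in the dsInR2 libraries, against 468, 1400, 859 and 1018 CPM in the dsMock libraries. Libraries 4, 7 and 8 of dsInR2 lay below all dsMock libraries, and dsInR2 library 1 did not. For Gs2, the log2 fold change was -1.05 (SE 0.41, adjusted p = 0.0619), and it passed without dsInR2 library 1 (-1.48, adjusted p = 0.0135), without dsMock library 1 (-1.33, adjusted p = 0.0273) and with DESeq2 (adjusted p = 0.0297). Glutamate synthase (GLT1) ranged from 71.4 to 144.8 CPM in dsInR2 and from 108.2 to 206.3 CPM in dsMock, with a log2 fold change of -0.45 (adjusted p = 0.271). Fpgs, a folylpolyglutamate synthase caught by the name search, adds glutamate to folate and had a log2 fold change of -0.01 (adjusted p = 0.992).

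Aminotransferases held the largest fall among the members. Of 11 tested genes, 4 fell in dsInR2, 1 rose and 6 did not pass. Alanine aminotransferase gpt2 (C0J52_09001, contig PYGN01000061.1, 1035760 to 1072769) exchanges the amino group between alanine and glutamate. It had 20.9, 18.4, 28.4 and 32.4 CPM in the dsInR2 libraries, against 184.6, 160.3, 154.8 and 205.5 CPM in the dsMock libraries. All dsInR2 libraries lay far below dsMock, and the log2 fold change was -2.82 (SE 0.29, adjusted p = 1.26e-05), or 7.04-fold lower. The dsInR1 libraries held 133.5 to 217.2 CPM, within or near the dsMock range.

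AGXT and AGXT2, named for aminotransferases that clear glyoxylate in vertebrates, also fell. AGXT (C0J52_09720, contig PYGN01000641.1, 526952 to 545734), annotated as serine-pyruvate aminotransferase, had 348, 615, 996 and 403 CPM in the dsInR2 libraries, against 836, 1563, 1211 and 1728 CPM in the dsMock libraries. The groups overlapped through dsInR2 library 7 and dsMock library 1, and the log2 fold change was -1.18 (SE 0.30, adjusted p = 0.00698). AGXT2 (C0J52_05900, contig PYGN01000323.1, 9160 to 56849) had 5.09, 6.01, 11.3 and 11.1 CPM in the dsInR2 libraries, against 37.7, 12.2, 21.7 and 12.3 CPM in the dsMock libraries. The groups did not overlap, though dsInR2 libraries 7 and 8 lay just under the lowest dsMock libraries, and the log2 fold change was -1.33 (SE 0.35, adjusted p = 0.00888).

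Bcat1 (C0J52_18170, contig PYGN01000818.1, 854612 to 898398) transfers the amino group of leucine, isoleucine and valine. It had 22.7, 13.9, 14.96 and 22.2 CPM in the dsInR2 libraries, against 28.9, 30.2, 39.5 and 31.1 CPM in the dsMock libraries. All dsInR2 libraries were lower than all dsMock libraries, and the log2 fold change was -0.81 (SE 0.21, adjusted p = 0.0074). Ornithine aminotransferase (Oat, C0J52_15073, contig PYGN01000491.1, 1181566 to 1204854) turns ornithine into the precursor shared by glutamate and proline, and was the aminotransferase that rose. It had 170.4, 99.7, 146.6 and 124.6 CPM in the dsInR2 libraries, against 39.9, 73.1, 62.5 and 46.1 CPM in the dsMock libraries. All dsInR2 libraries lay above dsMock, and the log2 fold change was 1.29 (SE 0.23, adjusted p = 7.19e-04), or 2.44-fold higher.

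The aspartate aminotransferase genes, which exchange amino groups between aspartate and glutamate, did not pass in dsInR2. Got1_1 had a log2 fold change of 0.52 (adjusted p = 0.0704), Got1_0 0.50 (adjusted p = 0.323) and got2 0.19 (adjusted p = 0.532). Got1_1 and Got1_0 lie 10246 bases apart on 1 contig, and reads may be divided between them. The putative phosphoserine aminotransferase C0J52_17187, of serine synthesis, had a log2 fold change of -0.53 (adjusted p = 0.109) and passed only where dsMock library 1 was left out. C0J52_03902, a second alanine-glyoxylate aminotransferase-like gene, spread from 24.6 to 263.3 CPM within dsInR2 and from 59.2 to 163.7 CPM in dsMock, with a log2 fold change of 0.02. Abat, 4-aminobutyrate aminotransferase, had 0.605 to 8.63 CPM in dsInR2 and 0.503 to 14.05 CPM in dsMock, with a log2 fold change of -0.72 (adjusted p = 0.621).

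No gene of arginine and proline breakdown passed in dsInR2. Arginase (ARG1, C0J52_11702), which splits arginine into ornithine and urea, had 6.50, 7.03, 4.99 and 6.50 CPM in the dsInR2 libraries, against 6.33, 6.01, 5.55 and 7.04 CPM in the dsMock libraries. The groups overlapped almost fully, and the 95% interval of the log2 fold change ran from -0.35 to 0.35. The annotated gene spans only 195 bases, so its reads may not cover a whole transcript. Proline dehydrogenase slgA_0 had a log2 fold change of 0.31 (adjusted p = 0.512). The hydroxyproline dehydrogenase prodh2 had 0.628 to 3.85 CPM in dsInR2 and 0 to 4.73 CPM in dsMock, with a log2 fold change of -0.26 (SE 0.91), too few reads to place it closely.

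Transsulfuration makes cysteine from homocysteine through cystathionine beta-synthase and then cystathionine gamma-lyase. Of 4 tested genes, 2 lyase genes fell in dsInR2, the synthase gene rose with a call that few alternatives kept, and 1 lyase gene did not pass. CTH_0 (C0J52_01494, contig PYGN01000026.1, 2435594 to 2436784) had 17.1, 39.0, 43.9 and 10.2 CPM in the dsInR2 libraries, against 41.8, 109.4, 123.2 and 122.4 CPM in the dsMock libraries. Only dsMock library 1 fell into the dsInR2 range, and the log2 fold change was -1.85 (SE 0.40, adjusted p = 0.00238).

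CTH_3 (C0J52_01495, contig PYGN01000026.1, 2438953 to 2440143), its neighbour 2168 bases away and of equal span, had 53.9, 65.9, 65.4 and 70.7 CPM in the dsInR2 libraries. In the dsMock libraries it had 66.5, 129.7, 150.4 and 168.3 CPM, again with only library 1 in the dsInR2 range. The log2 fold change was -1.01 (SE 0.22, adjusted p = 0.00232). The 2 copies may share reads, so the split between them is uncertain. Cth (C0J52_00003), a further lyase gene on another contig, ranged from 13.5 to 77.8 CPM in dsInR2 and from 5.37 to 32.3 CPM in dsMock, and its log2 difference was 0.82 (SE 0.65, adjusted p = 0.371).

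Cystathionine beta-synthase (CBS, C0J52_08847, contig PYGN01000261.1, 2155933 to 2207268) had 587.5, 745.7, 356.0 and 365.4 CPM in the dsInR2 libraries, against 258.8, 288.2, 449.0 and 327.5 CPM in the dsMock libraries. The groups overlapped. The log2 fold change of 0.63 (SE 0.23) passed narrowly (adjusted p = 0.0492), and the call was lost in 11 of 17 alternatives, including the fits without dsInR2 libraries 1 or 4 and without dsMock libraries 1, 3 or 5.

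**Figure D3:**
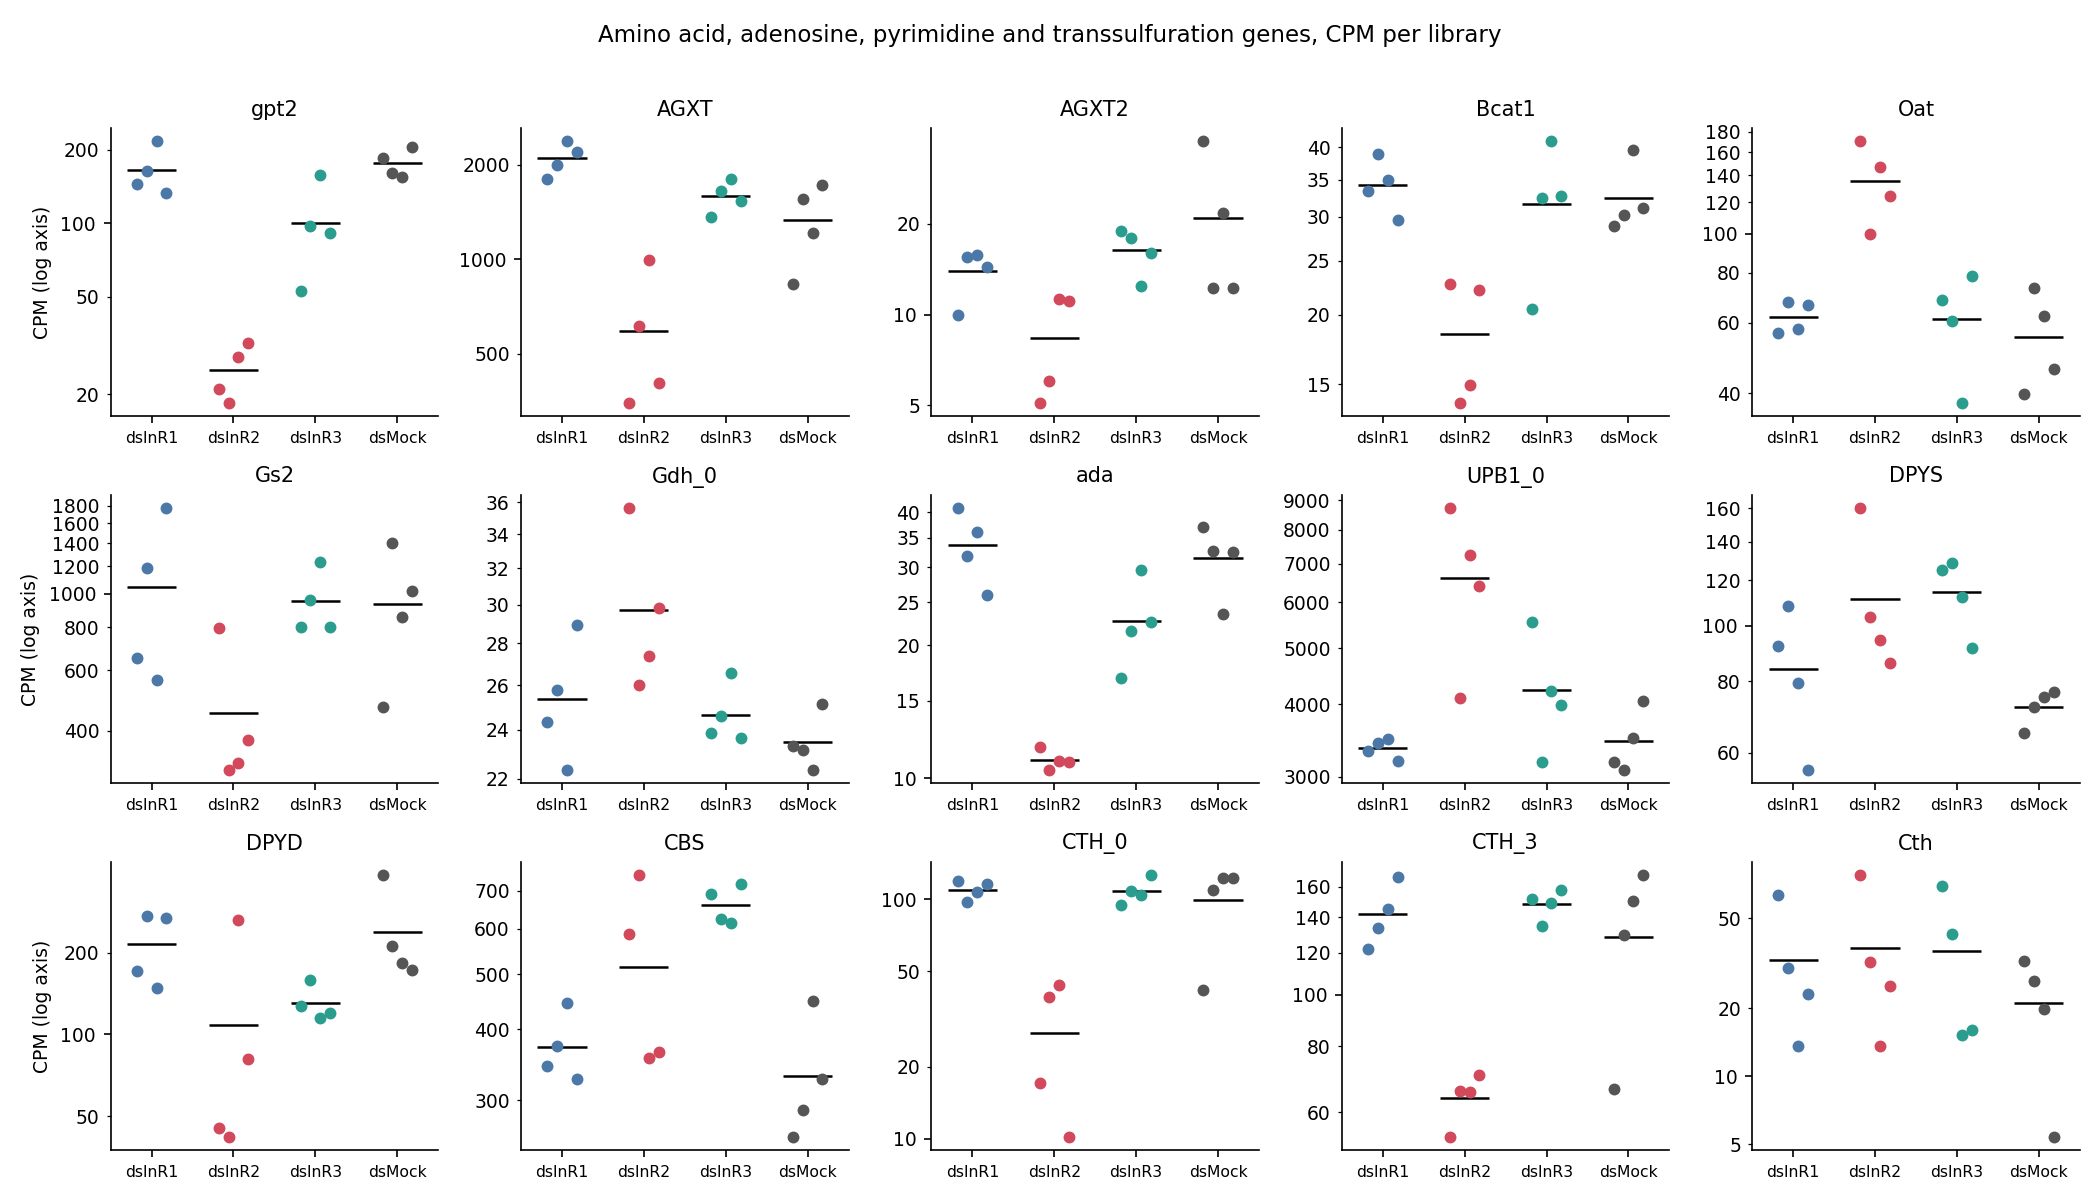
CPM per library (log y axis, a scale of its own per gene) of 15 members outside the urate route in dsInR1, dsInR2, dsInR3 and dsMock (x axis); points are libraries and bars are group means of 4. The dsInR2 points of gpt2 lie between 18.4 and 32.4 CPM, below all other libraries, while CTH_0 and CTH_3 show 1 dsMock point inside the dsInR2 range.

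The 8 members that were not tested had few or no reads. Gdh_1, TAT (tyrosine aminotransferase), GPT and a second gene spelled Gpt2 (C0J52_25973) had 0 reads in every library. CTH_1, cysA, slgA_1 and CTH_2 had 13, 8, 46 and 94 reads over all 16 libraries, with at most 26 in any library.

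In dsInR3, no member passed against dsMock, but 4 of 35 members had libraries that did not overlap dsMock, or 11.4%, beside 10.2% of all tested genes. They were CBS, DPYS, Prat and DPYD. CBS had 690.2, 623.6, 615.0 and 718.6 CPM in dsInR3 libraries 3, 5, 6 and 7, against 258.8, 288.2, 449.0 and 327.5 CPM in the dsMock libraries. Its log2 fold change was 1.0 (SE 0.23, adjusted p = 0.067). CBS passed with DESeq2 and without dsMock library 4.

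Prat had 15.6, 52.3, 59.2 and 31.6 CPM in the dsInR3 libraries, all below the lowest dsMock value of 77.8 CPM. Its log2 fold change in dsInR3 was -1.45 (SE 0.39, adjusted p = 0.0991), and its value in dsInR2 was -0.999. DPYS had 125.2, 128.7, 112.2 and 91.6 CPM in the dsInR3 libraries, all above the highest dsMock value of 76.5 CPM, and its fitted log2 difference was 0.66 (SE 0.21, adjusted p = 0.150). DESeq2 called CBS and DPYS higher and Prat lower in dsInR3, beside a background of 5.46% of the genes it tested.

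DPYD lay between 115.4 and 158.4 CPM in dsInR3 and between 172.7 and 386.4 CPM in dsMock, with a log2 fold change of -0.87 (adjusted p = 0.432). The 3 further members with an unadjusted p under 0.05 in dsInR3 were gpt2, ada and XDH_0. Their log2 fold changes were -0.82 for gpt2 (adjusted p = 0.169), -0.47 for ada (adjusted p = 0.223) and -0.75 for XDH_0 (adjusted p = 0.305). In dsInR3 the fitted log2 difference of Uro was -1.0 (SE 1.35, adjusted p = 0.793), that of allc 0.32 (adjusted p = 0.393) and that of Gs2 0.02 (adjusted p = 0.989).

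In dsInR1, no member passed against dsMock with edgeR, DESeq2 or limma-voom, and DESeq2 called 0.0848% of the genes it tested. AGXT was the only member whose dsInR1 libraries did not overlap dsMock, or 2.86% of the members beside 2.25% of all tested genes. It had 1804, 2006, 2384 and 2205 CPM in dsInR1 libraries 2, 5, 6 and 7, against 836, 1563, 1211 and 1728 CPM in the dsMock libraries. Its log2 fold change was 0.65 (SE 0.30, adjusted p = 1.0), and it was -1.18 in dsInR2. The other member with an unadjusted p under 0.05 was prodh2, at -2.30 (SE 1.02) and 0 to 0.621 CPM in dsInR1. The intervals were narrow for some members: the log2 fold change of Gdh_0 in dsInR1 lay between -0.14 and 0.36, and that of Pfas between -0.27 and 0.43.

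Tested directly against the other receptor groups, dsInR2 again carried the calls. Against dsInR1, 13 of 35 members passed, 3 higher and 10 lower, or 37.1% beside a background of 31.1%, of which 16.8% higher and 14.3% lower. Against dsInR3, 11 passed, 3 higher and 8 lower, or 31.4% beside a background of 22.9%, of which 11.6% higher and 11.3% lower. In dsInR2 over dsInR1, gpt2 had a log2 fold change of -2.72 (adjusted p = 1.87e-05), ada -1.61 (adjusted p = 3.00e-05) and allc -1.45 (adjusted p = 3.53e-05). In dsInR2 over dsInR3, allc had -1.60 (adjusted p = 2.80e-05), gpt2 -2.0 (adjusted p = 1.98e-04) and ada -1.04 (adjusted p = 9.93e-04). Not every member called against dsMock passed here. AGXT2, Gdh_0, CBS and DPYS passed against neither dsInR1 nor dsInR3, and UPB1_0 did not pass against dsInR3 (adjusted p = 0.0553). CBS and DPYS were not higher in dsInR2 than in dsInR3, with log2 fold changes of -0.37 and -0.04.

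Some members differed between dsInR2 and another receptor group without passing against dsMock. XDH_0 was higher in dsInR2 than in dsInR3, its log2 difference being 1.48 (SE 0.34, adjusted p = 0.00553). The libraries did not overlap, at 96.1 to 280.9 CPM in dsInR2 and 49.9 to 93.4 CPM in dsInR3. Gs2 was lower in dsInR2 than in dsInR1 (-1.21, adjusted p = 0.0364), as was C0J52_17187 (-0.71, adjusted p = 0.0357). Between dsInR1 and dsInR3 no member passed with edgeR, DESeq2 or limma-voom, with a background of 0%. Of the 35 tested members, 6 had an unadjusted p under 0.05, beside 9.21% of all tested genes.

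Other genes of the same pathways, found by product name and outside the 43, numbered 83, of which 75 were tested. In dsInR2 over dsMock, 23 rose and 13 fell, or 48.0%, beside 32.3% of all tested genes called, 17.6% higher and 14.7% lower. Their median log2 fold change was 0.33, beside 0.04 over all tested genes, and the lists that follow are read against the same background. Of the 12 remaining purine synthesis and salvage genes, 6 rose, none fell and 6 did not pass (median 0.66). ADSL, adenylosuccinate lyase, averaged 139.7 ± 13.97 CPM in dsInR2 and 33.95 ± 5.82 CPM in dsMock, with a log2 fold change of 2.04 (adjusted p = 6.87e-06). DhpD_1, guanine deaminase, which feeds xanthine dehydrogenase, had 1.91 (adjusted p = 3.97e-04). ade5, which acts downstream of Pfas, had 1.69 (adjusted p = 0.0107). It lies 12120 bases from Prat on the same contig, while Prat did not pass and was -0.999. ade5 had 511.6, 684.0, 575.6 and 448.8 CPM in the dsInR2 libraries and 55.5, 293.0, 123.0 and 217.5 CPM in the dsMock libraries.

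Of the 12 genes of glycine, serine, threonine and 1-carbon metabolism, 7 rose, none fell and 5 did not pass (median 0.71). The serine dehydratases Sds_1 and Sds_0, which break serine down, had log2 fold changes of 2.07 (adjusted p = 0.0365) and 2.03 (adjusted p = 7.69e-04), and Mthfs, of folate metabolism, had 1.67 (adjusted p = 0.00252). Sds_1 did not pass without dsInR2 library 4 or without dsMock libraries 1, 3 or 5. Of the 16 remaining genes of glutamate, asparagine, histidine and arginine, 1 rose, 7 fell and 8 did not pass (median -0.57). They included NOS, nitric oxide synthase, at -2.71 (adjusted p = 4.00e-04), and the proline synthesis gene Aldh18a1 at -1.50 (adjusted p = 7.43e-05). NOS was low throughout, at 1.09 ± 0.57 CPM in dsInR2 and 7.20 ± 2.60 CPM in dsMock.

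In aromatic amino acid breakdown, 2 of 5 tested genes rose and 1 fell. The last steps of tyrosine breakdown, FAH (1.96, adjusted p = 5.63e-05) and GstZ2 (1.60, adjusted p = 8.75e-06), rose, and Kyat3, a kynurenine transaminase, fell (-1.23, adjusted p = 4.56e-05). In branched-chain, propionyl and lysine breakdown, 5 of 15 rose and 4 fell. ACADSB (-2.05, adjusted p = 3.77e-04), of isoleucine breakdown, fell, whereas C0J52_27936, a putative methylmalonate-semialdehyde dehydrogenase, rose (1.65, adjusted p = 0.0169) at low levels. The call of C0J52_27936 was lost without dsInR2 library 8 and without dsMock libraries 1 or 5. In methionine and sulfur amino acids, 1 of 11 rose and 1 fell. Gclc, of glutathione synthesis, had 1.60 (adjusted p = 7.11e-05), and cdo1, cysteine dioxygenase, had -1.53 (adjusted p = 8.35e-05). In pyrimidine synthesis, 1 of 4 rose, CTPsyn (0.71, adjusted p = 0.0483), a call lost in 11 of 17 alternatives.

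**Figure D4:**
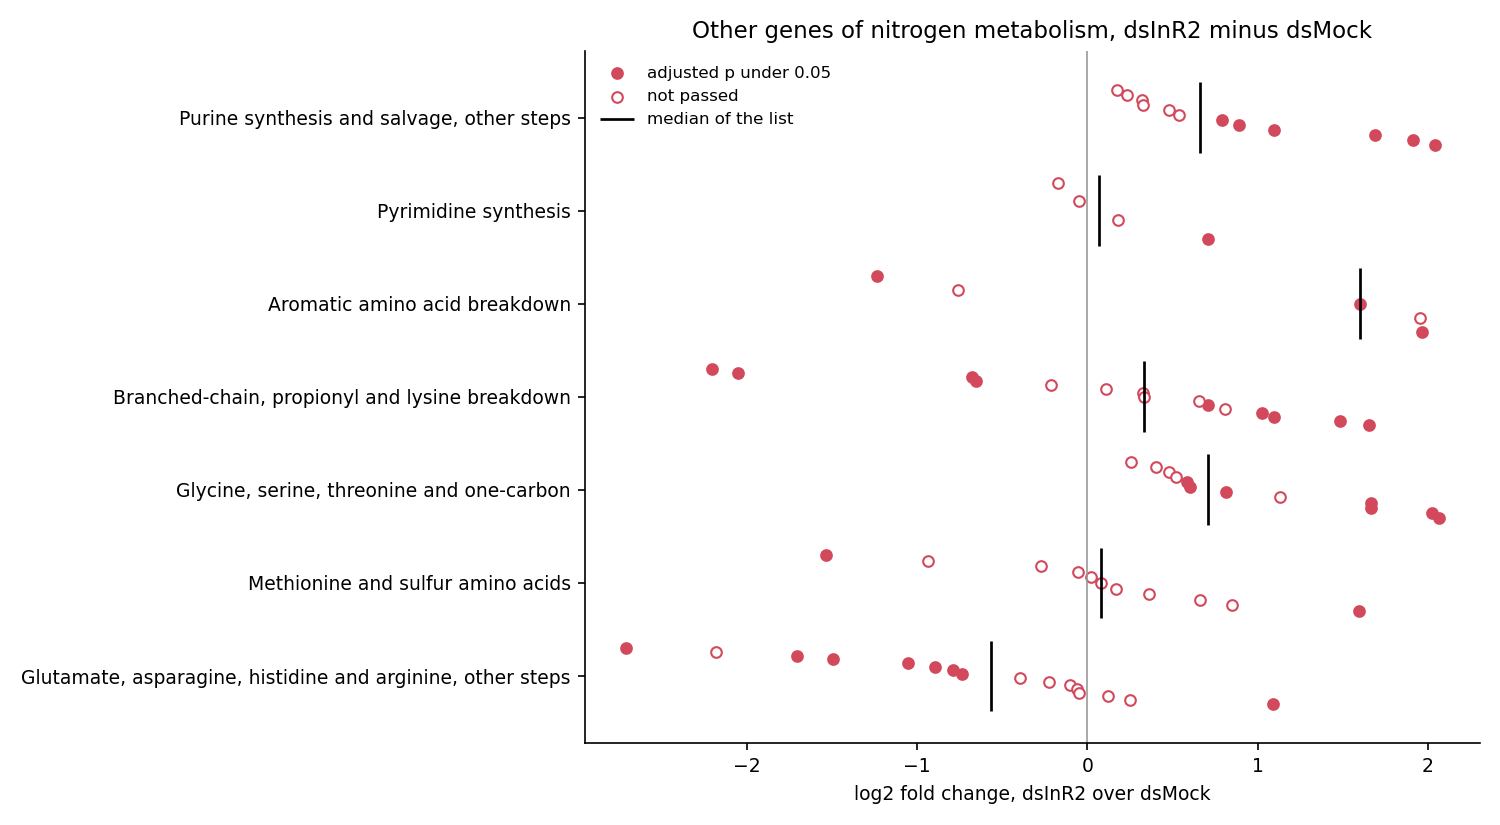
Log2 fold change in dsInR2 over dsMock (x axis) of 75 other genes of nitrogen metabolism by list (rows); filled points passed an adjusted p of 0.05, open points did not, and black lines are list medians. All points of the purine list and of the glycine, serine, threonine and one-carbon list lie above 0, with medians of 0.66 and 0.71.

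In dsInR3 over dsMock, 1 of these 75 genes passed, or 1.33%, beside 0.304% of all tested genes. Aldh5a1, succinate-semialdehyde dehydrogenase of 4-aminobutyrate breakdown, averaged 109.5 ± 10.8 CPM in dsInR3 and 60.4 ± 4.66 CPM in dsMock, with a log2 fold change of 0.86 (adjusted p = 0.0124). The call was lost without dsInR3 library 7 and without dsMock library 1. In dsInR1 over dsMock none passed with edgeR, DESeq2 or limma-voom, and 5 of 75 had an unadjusted p under 0.05, beside 3.29% of all tested genes.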

How the data were processed

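Fat body libraries were made from polyA RNA with a stranded kit, per the labels' protocols. The authors deposited 1 table of 28676 genes with read counts per gene that are not normalized. The submitters' processing notes list FastQC, Trimmomatic, HISAT2 and StringTie, giving no version. The build is Bger_1.1, per the file headers and labels. Use of strand in counting is not stated. A further 32 columns of per-library values (TPM and FPKM) were not used, so levels are not compared between genes.

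Columns name a group and a library number that is not the replicate number of the labels, so they were assigned to groups only. Control columns are named for polyhedrin and stand here for dsMock, the only group left. Counts were fitted with edgeR 4.0.16 (quasi-likelihood, TMM, filterByExpr, 1 coefficient per group over 16 libraries, two-sided) in R 4.3.3, and p-values were adjusted by Benjamini-Hochberg over 10536 genes, with a threshold of 0.05. This fit gives every adjusted p unless another tool is named. DESeq2 1.42.0, limma-voom 3.58.1, other scalings and filters, and leaving out each library were alternatives. All genes matched a locus tag in an annotation of 28774 genes of that build, which gave the coordinates.

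Members and lists were chosen with earlier results of these data known, and rest on product names not checked by sequence. Named genes are the called members, all tested members of the urate, ammonia, purine ring and arginine roles, and up to 3 called genes per other list, of which some are not reported here; the remaining members are named so that each is accounted for. Reads without molecular identifiers are not independent molecules.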

Additional observations from a re-analysis of the deposited data

Results flagged for a closer look

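Over 35 tested members and 4 groups, 140 sets of 4 libraries were examined for a library far from the other 3, and 7 had one, or 5%. Chance alone gives about 1 in 20. Uricase had 2 of the 7: Uro had 2731 CPM in dsInR2 library 1, with 2.28 to 45.5 CPM in the other dsInR2 libraries, and 1415 CPM in dsInR3 library 3, with 441 to 565 CPM in the other dsInR3 libraries. Gs2 had 797 CPM in dsInR2 library 1, with 308 to 375 CPM in the others of that group. CTH_0 had 41.8 CPM in dsMock library 1, with 109.4 to 123.2 CPM in the others. Library 3 of dsInR3 was also apart in prodh2, at 5.36 CPM with 1.12 to 1.43 CPM in the others, and in Got1_0, at 187 CPM with 59.6 to 75.3 CPM in the others. Pfas had 148 CPM in dsInR1 library 7, with 178 to 182 CPM in the others. Dissection, animals and RNA quality behind these libraries were not tested.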

How the results depend on the processing

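The table columns do not carry the replicate numbers of the labels. Their own library numbers recur across groups, and nothing in the labels says that they pair libraries. Over genes, 1 of 10 pairs of libraries with the same number had deviations from the group means correlated above 0.1 (range -0.13 to 0.15). Among pairs with different numbers, 11 of 86 did (range -0.18 to 0.22). With only 10 such pairs, the check cannot decide whether the numbers pair libraries. As the labels state no pairing, the number was taken as a name only. A replicate block on it, chosen after seeing the data, called 11 members in dsInR2 over dsMock, 10 of them among the 15. The count over all genes in that fit is not reported here, so the 11 cannot be set against a background. The block called 5 members in dsInR2 over dsInR1 (13 without the block) and 5 in dsInR2 over dsInR3 (11 without). Over all genes, it called 1058 in dsInR2 over dsInR1 (3273 without the block) and 816 in dsInR2 over dsInR3 (2411 without). The only number that dsInR2 shared with dsInR1 or with dsInR3 was 7, and with dsMock it shared only 1 and 4. Few libraries therefore inform these comparisons once the block is fitted, and calls lost for that reason cannot be told apart from fragile calls. In dsInR3 over dsMock the block called 0 other pathway genes and 1 gene over all genes. In dsInR2 over dsMock, the count of members called lay between 12 and 18 over the 17 alternatives without a block. The counts over all genes in these alternatives are not reported here, so that range cannot be set against a background. Of the 15 called members, 12 kept their call in all of these 17, whereas CBS, Gdh_0 and DPYS did not. With the block, UPB1_0 (adjusted p = 0.0852), XDH_1 (adjusted p = 0.0746) and Pfas (adjusted p = 0.0512) also lost their calls, as did CBS and Gdh_0. No result named here changed direction while past the threshold, and no scaling moved the median of all genes by more than 0.1. In dsInR3 over dsMock, members called were 0, against 3 with DESeq2 and 0 to 1 with a library left out (gpt2 without dsInR3 library 6, CBS without dsMock library 4). Other pathway genes called in dsInR3 were 1, against 2 with upper quartile factors, 2 with a mean CPM of at least 1, 2 with only the 2 groups fitted, 5 with DESeq2, 0 to 1 with a library left out, and 0 without dsMock library 1 and dsInR3 library 3, an alternative chosen after seeing the data, as was leaving out C0J52_15443. Over all genes, dsInR3 had 32 calls, 455 with DESeq2, 82 with a mean CPM of at least 1, 74 with upper quartile factors, 53 with limma-voom, 17 with no filter, 12 with only the 2 groups fitted, and 0 to 147 with a library left out. DESeq2 called 11 genes in dsInR1 over dsMock and 85 in dsInR1 over dsInR3, where edgeR called 0. Few reads lay behind prodh2, adat2, Abat, slgA_0, ADAL, Fpgs and ARG1, with under 15 CPM in every library. The causes were not tested.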
